A study of Mus musculus with 4 samples.

Results

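The genes described here encode the nuclear-encoded subunits of the mitochondrial respiratory chain, together with 8 assembly factors of complex I that carry the same naming. They were taken by name: every probe whose accession matched a symbol starting with Nduf, Uqcr, Cox4, Cox5, Cox6, Cox7, Cox8 or Atp5, or matched Sdha, Sdhb, Sdhc, Sdhd or Cyc1. The family was picked with earlier results of these data known, but only names entered this choice of genes. It gave 93 genes with 124 probes, out of 19748 named genes with a usable probe. Complex I held 46 of them, complex II 4, complex III 9, complex IV 18 and complex V 16. A further 4 protein-coding genes of these names (Atp5g1, Ndufb1, Ndufb4b and Ndufb4c) had no matched probe. Neither had any of 13 mitochondrially encoded genes looked up beside them. The mitochondrially encoded subunits of complexes I, III, IV and V were thus not analysed here.

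RNA was profiled from female mouse embryonic stem cells (ESCs), derived by parthenogenesis and so carrying a maternal genome alone. The study set haploid ESCs, which hold a single chromosome set and tend to turn diploid in culture, against diploid ESCs. Each ploidy was represented by replicate arrays 1 and 2, labelled as line 1 and line 2 (n = 2 per group, 4 one-colour arrays on 1 slide), and the design text calls them independent experiments. No strain, passage number, treatment or sorting of the cells is given in the labels used here. All 10 of 10 ESC markers looked up, among them Pou5f1, Sox2 and Nanog, were well above background on every array. The log2 of their summed linear levels, to which the brightest probes add most, lay between 7.02 and 7.15.

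The respiratory chain of the inner mitochondrial membrane feeds electrons from NADH (complex I) and from succinate (complex II) through ubiquinone to complex III, and from there through cytochrome c to complex IV, which reduces oxygen to water. Complexes I, III and IV pump protons, and complex V, the ATP synthase, lets them flow back through a rotor to make ATP. Mouse ESCs draw on both glycolysis and respiration, and their respiratory chain genes are among the abundant housekeeping transcripts.

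Some promoters of this family are known to hold sites of the factors NRF1, GABP (also called NRF2) or YY1. The 250 bases before the transcription start were therefore read from RefSeq's promoter windows (assembly GRCm38.p6). Those printed first belong to the genes with the highest difference in complexes I, III, IV and V. These 4 sequences were thus chosen from the measured values. Sdhc, the highest of complex II, has no entry in the table. None of the 4 holds GCGCA, any base and then GCGC (NRF1), CCGGAAG (GABP) or AAGATGG (YY1) on either strand, so they stand in lower case throughout.
Ndufb11, chrX:20617620-20617869, minus strand: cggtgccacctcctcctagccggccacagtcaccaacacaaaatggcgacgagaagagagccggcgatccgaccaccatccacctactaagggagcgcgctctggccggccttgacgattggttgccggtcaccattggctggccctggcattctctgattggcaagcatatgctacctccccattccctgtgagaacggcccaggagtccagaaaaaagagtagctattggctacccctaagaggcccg
Uqcrfs1, chr13:30545317-30545566, minus strand: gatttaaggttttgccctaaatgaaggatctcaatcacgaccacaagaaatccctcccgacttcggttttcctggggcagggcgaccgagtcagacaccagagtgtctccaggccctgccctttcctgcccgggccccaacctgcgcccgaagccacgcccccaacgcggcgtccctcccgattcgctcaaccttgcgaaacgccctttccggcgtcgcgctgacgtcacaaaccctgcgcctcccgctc
Cox7b2, chr5:71548206-71548455, minus strand: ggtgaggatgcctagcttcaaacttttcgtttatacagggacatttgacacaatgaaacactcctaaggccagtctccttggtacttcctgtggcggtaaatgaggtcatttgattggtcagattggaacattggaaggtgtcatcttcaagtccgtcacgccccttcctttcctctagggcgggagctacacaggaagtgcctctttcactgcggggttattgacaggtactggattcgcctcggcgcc
Atp5j2, chr5:145191542-145191791, minus strand: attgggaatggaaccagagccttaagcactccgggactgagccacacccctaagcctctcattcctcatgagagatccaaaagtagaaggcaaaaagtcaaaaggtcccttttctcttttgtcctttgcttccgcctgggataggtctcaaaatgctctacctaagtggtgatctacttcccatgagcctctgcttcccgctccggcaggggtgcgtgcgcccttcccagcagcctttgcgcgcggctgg

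For contrast, the 3 genes whose windows hold both the NRF1 and the GABP letters are shown next. They were chosen after their values were seen. Capitals mark the matches on either strand: in Cox6a1 the NRF1 letters lie 162 to 153 and 117 to 108 bases before the start and the GABP letters 16 to 10 bases before it, and no match overlaps another.
Cox6a1, chr5:115348959-115349208, minus strand: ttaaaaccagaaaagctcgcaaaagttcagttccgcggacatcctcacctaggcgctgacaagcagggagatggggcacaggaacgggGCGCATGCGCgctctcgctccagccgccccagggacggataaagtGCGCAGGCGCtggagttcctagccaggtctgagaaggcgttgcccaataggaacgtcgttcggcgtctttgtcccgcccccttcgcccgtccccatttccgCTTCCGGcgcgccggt
Atp5h, chr11:115419920-115420169, minus strand: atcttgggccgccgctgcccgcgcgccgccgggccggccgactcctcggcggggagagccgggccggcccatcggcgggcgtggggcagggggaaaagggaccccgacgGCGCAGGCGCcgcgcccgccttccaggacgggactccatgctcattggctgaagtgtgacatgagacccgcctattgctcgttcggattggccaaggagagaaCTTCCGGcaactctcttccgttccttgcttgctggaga
Sdhd, chr9:50603850-50604099, minus strand: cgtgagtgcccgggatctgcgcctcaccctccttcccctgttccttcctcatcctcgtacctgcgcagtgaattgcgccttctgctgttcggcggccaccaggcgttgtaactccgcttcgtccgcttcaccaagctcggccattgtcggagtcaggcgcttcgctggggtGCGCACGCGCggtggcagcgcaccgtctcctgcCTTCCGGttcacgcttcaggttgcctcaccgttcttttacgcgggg

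In Atp5h the NRF1 letters lie 141 to 132 bases and the GABP letters 38 to 32 bases before the start, and in Sdhd 79 to 70 and 46 to 40 bases before it. Of the 93 genes, 75 had promoter entries, with 80 windows. The NRF1 letters were found in 15 windows (18.75%), against 3.74% of all 32841 windows in the table. The GABP letters were in 14 (17.5%, against 6.91%), the YY1 letters in 1 (1.25%, against 4.49%), and ACGTG, the core letters bound by hypoxia-inducible factors, in 15 (18.75%, against 16.57%). The windows of the family were also richer in G and C, with a median of 57.4% against 52.4%, and both NRF1 and GABP letters are made mostly of those bases. By complex, the NRF1 letters occurred in 7 of 40 genes of complex I, 2 of 3 of complex II, 0 of 5 of complex III, 1 of 13 of complex IV and 4 of 14 of complex V. The windows end at the transcription start, so letters at or after it were not counted. A match is a run of letters and not a measured binding site.

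Levels are given as log2 of the probe's processed signal minus the array's 75th percentile, from the brightest probe of each gene, and a difference is the haploid mean minus the diploid mean on that scale. A level describes 1 probe and is not compared between genes. Of the 93 genes, 92 were detected well above background on each of the 4 arrays, so none entered the test through 1 group alone. The exception was Cox8b, the heart and skeletal muscle form of a small complex IV subunit, which was well above background on no array and was not tested.

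Haploid cells gave slightly higher values for most of the family, by an amount that depended on how the arrays were scaled, and no single gene passed the test. The median difference was 0.23, which is 1.18-fold, with the middle of the distribution between 0.14 and 0.32, and 86 of 93 genes lay above 0 (over all features tested the median was 0.02 and 53.2% lay above 0). Most of the family was bright, with 66 of the 92 tested genes in the brightest of 10 equal classes of features. In that class 90.5% of all features lay above 0, with a median of 0.22. Without diploid array 2 the median over the 92 was 0.04, with 65 above 0 and 27 below. Of the 92 tested genes 85 lay above 0 and 7 below, but with quantile normalization 66 lay above and 26 below with a median of 0.07, and in the values deposited by the authors 65 and 27 with a median of 0.08. Quantile normalization made the difference over 1.5 times smaller, or turned it, in 74 of the 92. By limma with Benjamini-Hochberg adjustment over 17963 features, 0 of 92 genes were called at an adjusted p of 0.05 (adjusted p = 0.426 to 0.982), against 0.111% of all features. At an unadjusted limma p of 0.05 there was 1 of 92, against 11.7% of all features. The standard errors ran from 0.16 to 0.64, so differences of this size were within what n = 2 per group leaves undecided. In RNA from bulk cultures, fewer cells of a type and less RNA per cell cannot be told apart.

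The arrays did not divide by group. After centring each gene on its own mean over the 4 arrays, the median of the 93 genes was 0.13 on haploid array 1, 0.13 on haploid array 2, 0.08 on diploid array 1 and -0.30 on diploid array 2. Diploid array 1 thus lay beside the haploid arrays, and diploid array 2 stood alone below them. It was the lowest of the 4 arrays for 83 of 93 genes, against 34.5% of all features tested. The median difference was 0.04 between the haploid mean and diploid array 1, and 0.44 between the haploid mean and diploid array 2. The haploid mean was above diploid array 1 for 65 of 93 genes, where 51.3% of all features tested were. Both haploid arrays were above both diploid arrays for 43 of 93 genes (26.0% of all features tested), both were below for 5 (20.9%), and the remaining 45 overlapped. Diploid array 2 also had the brightest scan, with a 75th percentile of 907 intensity units against 526, 553 and 617 for haploid arrays 1 and 2 and diploid array 1, and 65.0% of its probes were well above background against 53.6%, 59.7% and 55.1%. The part of this scan difference in the result was not tested.

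**Figure D1:**
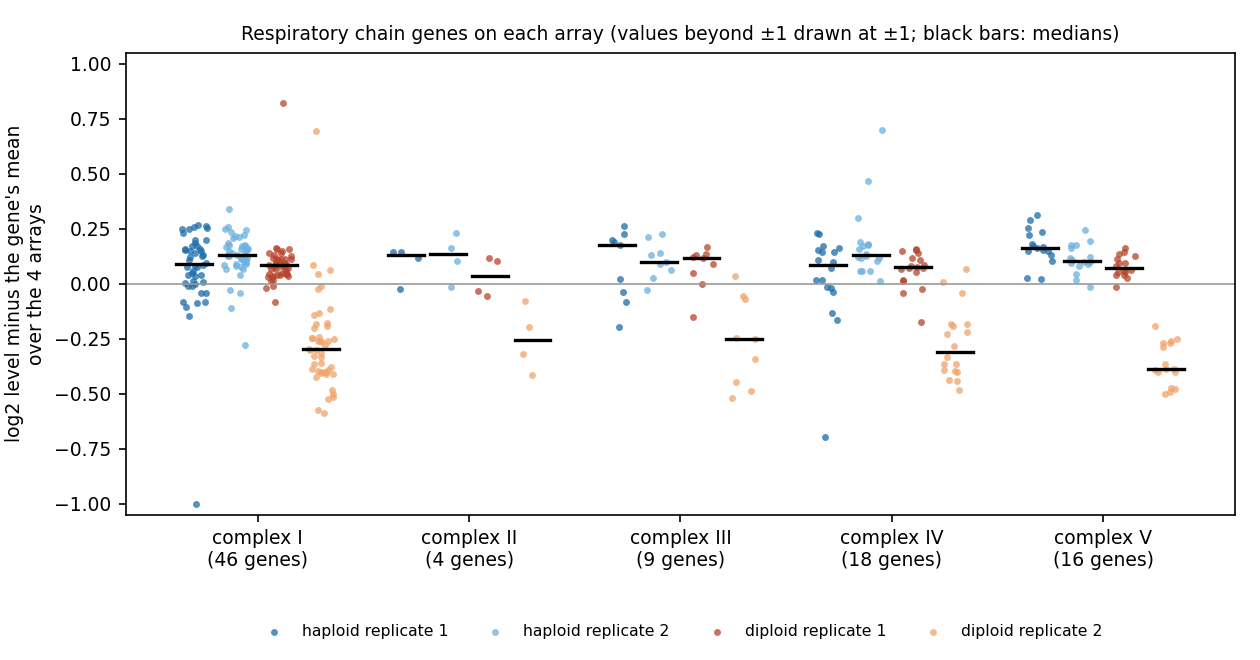
Each point is 1 of the 93 respiratory chain genes on 1 of the 4 arrays, grouped by complex, with the log2 level minus the gene's own mean over the arrays on the vertical axis and the median as a black bar. In all 5 complexes the median of diploid array 2 is the lowest, from -0.25 in complex III to -0.39 in complex V, while the other 3 medians lie between 0.04 and 0.18; a value beyond 1 in size is drawn at 1.

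The 5 complexes gave nearly the same picture. Median differences were 0.22 for complex I, 0.28 for complex II, 0.17 for complex III, 0.22 for complex IV and 0.27 for complex V; that of complex III was -0.01 with quantile normalization. The value of complex IV includes the undetected Cox8b, and over its 17 tested genes the median was 0.27. The haploid value was the higher mean for 42 of 46, 3 of 4, 8 of 9, 17 of 18 and 16 of 16 genes in that order, and after quantile normalization for 33 of 46, 3 of 4, 4 of 9, 12 of 17 tested and 14 of 16. Pooled over both groups, the spread between arrays of 1 group was of the same size: the SD of the centred medians within groups was 0.19, 0.15, 0.19, 0.19 and 0.23. Between the diploid arrays alone, array 1 minus array 2, the medians were 0.39, 0.24, 0.34, 0.36 and 0.45. The complexes were no further apart from each other than the diploid arrays were. The haploid arrays lay closer together, with medians of array 1 minus array 2 of -0.05, -0.02, -0.05, -0.02 and 0.06.

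**Figure D2:**
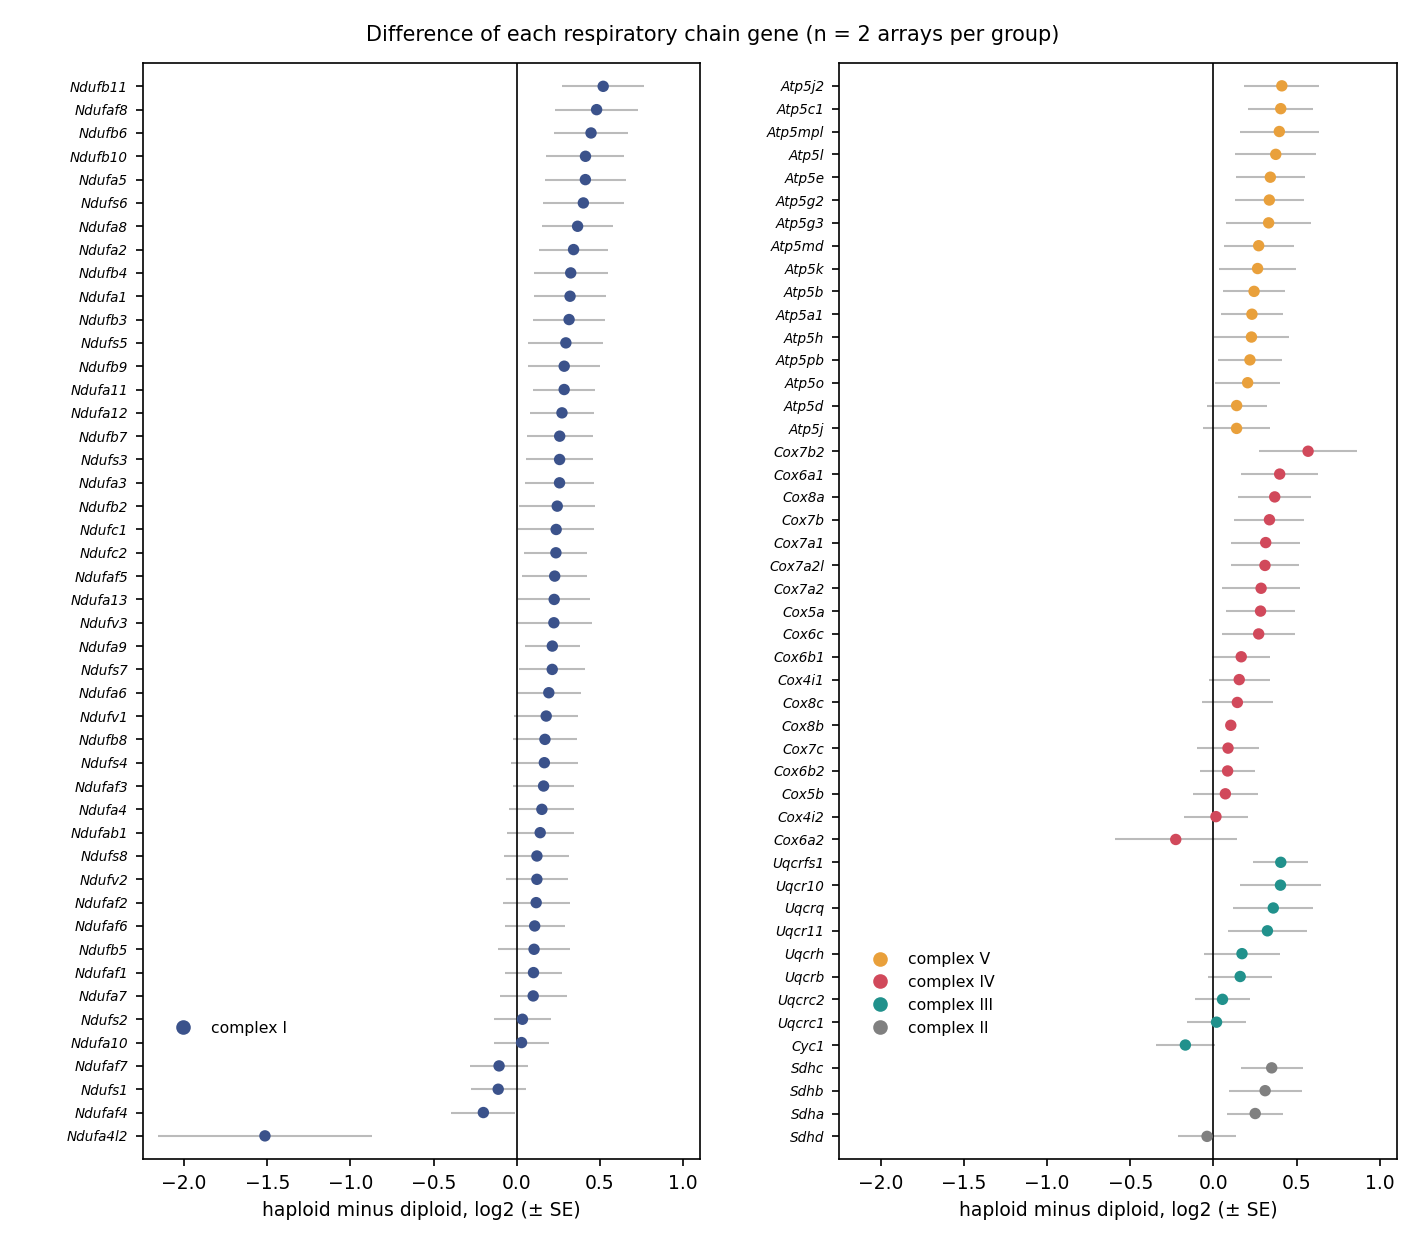
Each point is the log2 difference, haploid mean minus diploid mean, of 1 respiratory chain gene, with its SE from limma as the bar (n = 2 arrays per group) and the genes ordered within complexes I to V. Most points sit a little to the right of 0 and most bars are wide against that distance; Ndufa4l2 at -1.51 lies far to the left, and Cox8b, which was not tested, has no bar.

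Complex I, the NADH dehydrogenase, has a peripheral arm that binds NADH and carries the iron-sulfur clusters, and a membrane arm that pumps protons. Its accessory subunits, which surround the catalytic core, had a median difference of 0.26 over 29 genes, all 29 above 0 (24 of 29, with a median of 0.09, after quantile normalization). The 7 nuclear-encoded core subunits had a median of 0.12, from -0.11 for Ndufs1 to 0.26 for Ndufs3 (median -0.0093 after quantile normalization), and the 8 assembly factors a median of 0.11. Ndufb11, an X-linked subunit of the membrane arm, had the highest difference of the complex. Its levels were 7.09 on both haploid arrays, 6.90 on diploid array 1 and 6.25 on diploid array 2, a difference of 0.52 ± 0.25 (SE, limma adjusted p = 0.47). The groups did not overlap, but the diploid arrays were further apart from each other than diploid array 1 was from the haploid arrays. Its other probe gave 0.25. Ndufb6, another membrane arm subunit, read 5.60 and 5.66 on the haploid arrays against 5.44 and 4.92 on the diploid arrays (0.45 ± 0.22, limma adjusted p = 0.49). Ndufaf8, an assembly factor that acts together with Ndufaf5, read 0.39 and 0.36 against 0.23 and -0.44 (0.48 ± 0.25, limma adjusted p = 0.51). In both genes the low value of diploid array 2 made most of the difference.

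At the other end of complex I, Ndufaf4, an assembly factor of the peripheral arm, read 2.37 and 2.01 in haploid and 2.41 and 2.38 in diploid cells (-0.20 ± 0.19, limma adjusted p = 0.69). Here haploid array 2 was the lowest, and haploid array 1 was close to the diploid arrays. Ndufs1, the largest subunit of the peripheral arm, which carries iron-sulfur clusters, read 4.63 and 4.68 against 4.78 and 4.75 (-0.11 ± 0.16, limma adjusted p = 0.80). Ndufv3, an accessory subunit beside the NADH-binding site, was the gene whose probes disagreed most. Its brightest probe gave 6.06 and 6.21 in haploid and 6.18 and 5.64 in diploid cells, a difference of 0.22, while its other probe gave -0.41. Among 23 genes of the family with more than 1 probe well above background, 21 had all probes on the same side of 0, and the median range between probes of a gene was 0.14.

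Ndufa4l2 stood apart from every other gene of the family. It is a paralog of Ndufa4 and a known target of hypoxia-inducible factors, under which it is induced and lowers complex I activity. Its levels were -2.53 on haploid array 1, -0.33 on haploid array 2, 0.15 on diploid array 1 and 0.02 on diploid array 2. Both haploid values were below both diploid values, yet the haploid arrays were 2.19 apart and the diploid arrays 0.13. The difference was -1.51 ± 0.64 (limma adjusted p = 0.43). Without haploid array 1 it was -0.42, and without haploid array 2 it was -2.61 with a limma adjusted p of 0.0037, where the lone haploid array is assumed to vary like the diploid ones. Under the other alternatives the limma adjusted p ran from 0.27 to 0.97. Ndufa4 itself, named as a subunit of complex I and since placed in complex IV, read 5.55 and 5.60 against 5.61 and 5.24 (0.15 ± 0.20, limma adjusted p = 0.77). Its haploid and diploid values overlapped, its difference was -0.035 with quantile normalization, and counting it in complex IV gave a median of 0.22 for complex I and lowered that of complex IV from 0.22 to 0.17.

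A list of hypoxia targets was set beside Ndufa4l2, of which 13 of 14 were tested. By limma 0 were called (0.111% of all features were) and 5 had an unadjusted p under 0.05 (11.7% of all features). The differences were below 0 for 11 and above 0 for 2, with a median of -0.59. After centring each gene, the median of the 13 was -0.62 on haploid array 1, 0.25 on haploid array 2, 0.32 on diploid array 1 and 0.35 on diploid array 2. Haploid array 1 was thus the low one, as it was for Ndufa4l2. Pdk1, a kinase that inhibits pyruvate dehydrogenase, read -1.23 and -0.89 in haploid and -0.04 and 0.29 in diploid cells (-1.19 ± 0.21, limma adjusted p = 0.13). Vegfa, a growth factor for blood vessels, read -0.32 and 0.01 against 0.62 and 0.88 (-0.90 ± 0.20, limma adjusted p = 0.19). For these genes both haploid arrays were low. Bnip3, a receptor for the removal of mitochondria, instead read 1.70 on haploid array 1 and 3.85, 3.67 and 3.62 on haploid array 2 and the diploid arrays. Egln3, an oxygen-sensing prolyl hydroxylase, read -2.34 on haploid array 1 and -0.55, -0.02 and -0.26 on the others. In Bnip3 and Egln3, named here after their values were seen, haploid array 1 stood alone, as in Ndufa4l2. Oxygen in the cultures is not given in the labels used here, and its part in these values was not tested.

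**Figure D3:**
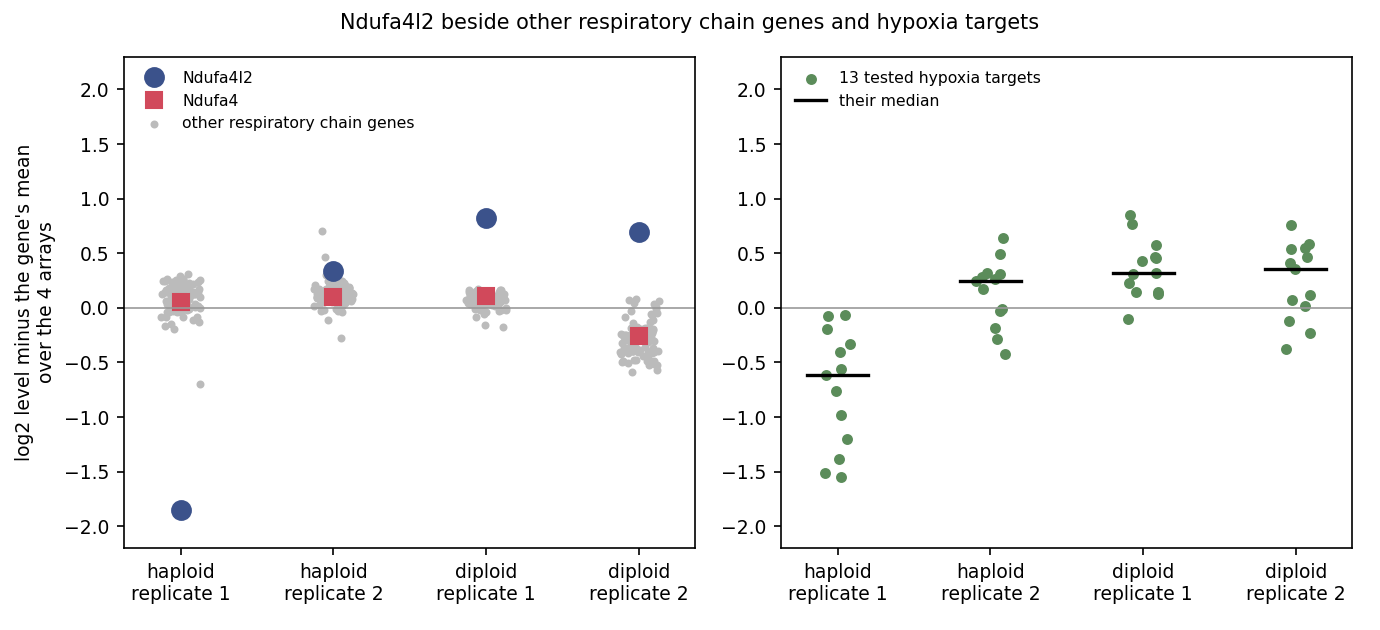
The left panel shows, for each of the 4 arrays, the log2 level minus the gene's own mean over the arrays for Ndufa4l2, Ndufa4 and the other respiratory chain genes; the right panel shows the 13 tested hypoxia targets on the same scale with their median as a bar. On haploid array 1 Ndufa4l2 lies at -1.85 and the median of the hypoxia targets at -0.62, while most respiratory chain genes lie near 0 there and fall below 0 on diploid array 2.

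Complex II, succinate dehydrogenase, is the only complex that also belongs to the tricarboxylic acid cycle, and all its subunits are encoded in the nucleus. Sdha, the flavoprotein that oxidises succinate, read 4.67 and 4.63 in haploid and 4.47 and 4.33 in diploid cells (0.25 ± 0.17, limma adjusted p = 0.58). Sdhb, which carries the iron-sulfur clusters, read 6.11 and 6.13 against 6.07 and 5.55 (0.31 ± 0.22, limma adjusted p = 0.60). Its difference came almost wholly from diploid array 2, and its other probe gave 0.00. Sdhc, a membrane anchor that helps bind ubiquinone, read 3.74 and 3.85 against 3.59 and 3.31 (0.35 ± 0.19, limma adjusted p = 0.51), and its other probe gave 0.05. Sdhd, the partner anchor, whose promoter with NRF1 and GABP letters is printed above, read 5.31 and 5.32 against 5.46 and 5.26 (-0.04 ± 0.17, limma adjusted p = 0.94). The haploid values of Sdhd lay between the diploid ones, while those of the other 3 genes lay above both.

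Complex III, the cytochrome bc1 complex, passes electrons from ubiquinol to cytochrome c. Uqcrfs1, its Rieske iron-sulfur protein, was the one gene of the family with an unadjusted limma p under 0.05. Its levels were 4.83 and 4.88 in haploid and 4.50 and 4.41 in diploid cells, a difference of 0.40 ± 0.17 (limma adjusted p = 0.426). Here the diploid arrays lay close together and the difference did not rest on 1 of them: it was 0.35 to 0.45 when each array was left out in turn, though it ran from 0.26 with quantile normalization to 0.82 with normexp background correction on all spots. Cyc1, the cytochrome c1 that hands electrons on, was lower in the haploid mean, with 5.03 and 5.26 against 5.36 and 5.26 (-0.17 ± 0.18, limma adjusted p = 0.72), although normexp background correction on all spots gave 0.25. The core proteins Uqcrc1 and Uqcrc2, which have a structural role, differed by 0.02 and 0.05 with overlapping groups. The 5 small accessory subunits had a median difference of 0.32 (0.10 after quantile normalization), and diploid array 2 was the lowest array in all 5. Uqcr10, for instance, read 6.98 and 7.00 against 6.91 and 6.27 (0.40 ± 0.24, limma adjusted p = 0.55), with its other probes at 0.38 and 0.42. Uqcrq, a subunit next to cytochrome b, read 7.48 and 7.39 against 7.38 and 6.77 (0.36 ± 0.24, limma adjusted p = 0.58). In both of them diploid array 1 was within 0.1 of a haploid array.

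Complex IV, cytochrome c oxidase, has several subunits with a general form and a form known from particular tissues. Its 10 general accessory subunits had a median difference of 0.28, from 0.07 to 0.40, all above 0 (6 of 10 after quantile normalization), and the 6 tested tissue or condition forms a median of 0.11, from -0.23 to 0.57 (-0.27 with normexp background correction on all spots). Cox6a1, the general form that has a muscle counterpart in Cox6a2, read 8.69 and 8.63 in haploid and 8.54 and 7.97 in diploid cells (0.40 ± 0.23, limma adjusted p = 0.53). Its difference was 0.068 with quantile normalization and 0.11 without diploid array 2. Cox6a2 read -3.70 and -2.54 against -2.85 and -2.94 (-0.23 ± 0.37, limma adjusted p = 0.82). The haploid arrays of Cox6a2 were 1.16 apart and enclosed the diploid ones, so no direction could be read.

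The other pairs of forms were alike in that none was called. Cox4i1, the general form of subunit 4, read 7.56 and 7.52 against 7.54 and 7.24 (0.15, and -0.15 with quantile normalization), and Cox4i2, its lung and hypoxia form, read -2.30 and -1.96 against -2.16 and -2.13 (0.01). Cox6b1 and its testis form Cox6b2 differed by 0.17 and 0.08, without overlap of the groups. Cox7a2 read 6.08 and 6.02 against 6.06 and 5.47 (0.29), and its heart and skeletal muscle form Cox7a1 read 3.75 and 4.03 against 3.75 and 3.40 (0.31). Cox7b2, a testis form, had the highest difference of the family, with -1.63 and -0.80 against -1.67 and -1.90 (0.57 ± 0.29, limma adjusted p = 0.50). That value rested on haploid array 2, and without it the difference was 0.15. Its general counterpart Cox7b, which is X-linked, read 7.35 and 7.39 against 7.27 and 6.80 (0.34 ± 0.21, limma adjusted p = 0.56). Cox8a read 7.65 and 7.55 against 7.49 and 6.97 (0.37 ± 0.22, limma adjusted p = 0.54), its testis form Cox8c differed by 0.14 with overlap, and the muscle form Cox8b was not well above background in either group.

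Markers of the tissues that these forms are known from, and of other cells, were looked up beside them. Of 6 markers of heart and skeletal muscle, Myh6 and Myh7 were detected well above background on each of the 4 arrays and 3 on none. Myh6 and Myh7 differed by 0.66 and 0.50 (limma adjusted p = 0.27 and 0.36), both with an unadjusted limma p under 0.05. Of 4 testis markers, Prm1 and Prm2 were well above background on 4 arrays, Tnp1 on 3 and Acrv1 on 1. Of 6 markers of primitive endoderm 0 were so on all 4 arrays, Gata4 and Gata6 on 3, Sox17 and Sox7 on 1 each and 2 on none. Gata4 and Gata6 differed by -0.77 and -0.96, but entered the test through the diploid group alone. Of 10 fibroblast markers, looked up because ESCs are often grown on feeder cells, 9 were well above background on all 4 arrays. The log2 of their summed linear levels was 4.77 and 4.51 in haploid and 4.19 and 3.95 in diploid cells. Of the 9 tested, 6 lay above 0 (median difference 0.58, 0 called by limma, 4 with an unadjusted p under 0.05). Of 8 trophectoderm markers 5 were, with a median difference of 1.02. Of these, 3 lay above 0 (Krt18 1.23, Krt8 1.15 and Gata3 1.02) and 2 below (Eomes -0.43 and Tfap2c -0.14). By limma 0 were called and 4 had an unadjusted p under 0.05, Eomes among them. The log2 of the summed linear levels of the trophectoderm list was 4.17 and 3.88 against 3.71 and 3.78. The part of these other cells in the values of the respiratory chain genes was not tested.

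Complex V, the ATP synthase, joins a catalytic F1 head to a membrane rotor through a central and a peripheral stalk. All 16 of its genes had the higher mean in haploid cells at this scaling (14 of 16 with quantile normalization), and all 16 had their lowest value on diploid array 2. The head subunits Atp5a1 and Atp5b, which carry the nucleotide-binding sites, differed by 0.23 and 0.24, but their median turned to -0.021 with quantile normalization. The 3 central stalk genes had a median of 0.34, the 2 c-ring genes Atp5g2 and Atp5g3 of 0.33, the 4 peripheral stalk genes of 0.21 and the 5 accessory genes of 0.37. Quantile normalization lowered these medians to 0.14, 0.067, 0.032 and 0.17. Atp5j2, the accessory subunit f, was the highest, with 7.30 and 7.24 against 7.13 and 6.59 (0.41 ± 0.22, limma adjusted p = 0.52), and its other probe gave 0.10. Atp5c1, the gamma subunit that turns inside the head, read 7.00 and 7.08 against 6.82 and 6.45 (0.40 ± 0.20, limma adjusted p = 0.48), with 0.42 from its other probe. Atp5mpl, a small proteolipid of the complex, read 6.72 and 6.54 against 6.53 and 5.94 (0.40 ± 0.24, limma adjusted p = 0.54). In the first 2 both haploid arrays were above both diploid arrays by at least 0.1, while in Atp5mpl haploid array 2 and diploid array 1 were nearly level. The smallest differences of the complex were those of Atp5d, the delta subunit of the central stalk, and Atp5j, the coupling factor of the peripheral stalk, both 0.14 with overlapping groups.

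The 3 X-linked genes of the family (Ndufa1, Ndufb11 and Cox7b) had differences of 0.32, 0.52 and 0.34. In all 3 both haploid arrays were above both diploid arrays, as in 43 of the 93 genes and 26.0% of all features tested. The 90 autosomal genes of the family had a median of 0.23. In all features tested, the medians were 0.11 over 498 X-linked genes and 0.01 over 12541 autosomal ones. With 3 genes, all lowest on diploid array 2, no difference between X-linked and autosomal members was tested.

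How bright a probe is went along with the difference. When the 17963 features were put into 10 classes of equal size by mean level, the class median was -0.17 in the dimmest and 0.22 in the brightest, and the median of diploid array 1 minus diploid array 2 was -0.09 and 0.33. Of the 92 tested genes, 66 lay in the brightest class. In that class 90.5% of all 1797 features had a difference above 0, and so had 63 of the 66; diploid array 2 was the lowest array for 88.7% of all features and for 64 of the 66. The median difference of the 66 was 0.26, within the middle range of the class (0.11 to 0.32), and 45 of them lay above its median. The 58 genes of the family with a mean level of 5 or more had a median difference of 0.27, and the 35 below it one of 0.14. Over 91 tested genes without Ndufa4l2, the difference between groups followed the difference between the diploid arrays (Pearson r = 0.72 across genes), which is a description only, since both hold the diploid values.

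**Figure D4:**
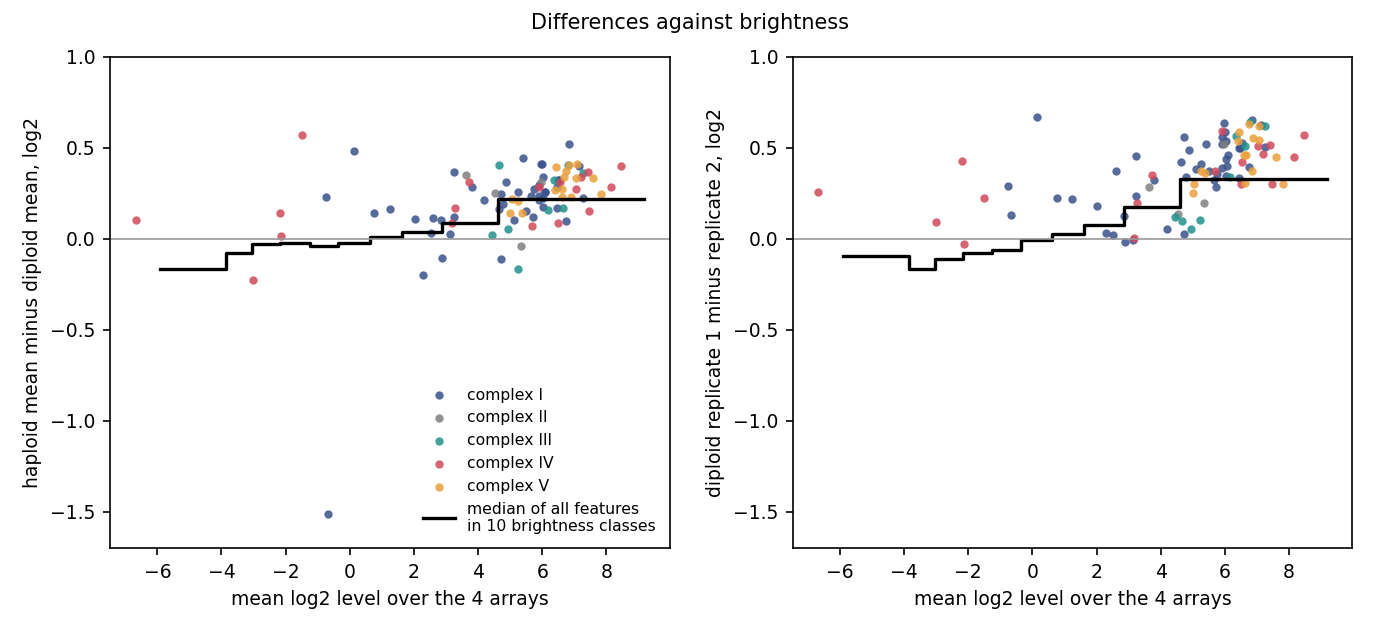
Each point is a respiratory chain gene, coloured by complex, against its mean log2 level over the 4 arrays; the left panel gives the difference haploid mean minus diploid mean, the right panel diploid array 1 minus diploid array 2, and the black line the median of all features in 10 brightness classes. The line climbs to 0.22 on the left and 0.33 on the right in the brightest class, where 66 of the 92 tested genes lie.

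Genes that hold the NRF1 letters in their promoter window had a median difference of 0.31 (14 genes) against 0.23 for the 61 genes that do not. For the GABP letters the medians were 0.26 and 0.24, and for ACGTG 0.25 and 0.24. Cox6a1 and Sdhd, which both hold the NRF1 and GABP letters shown above, differed by 0.40 and -0.04, and Atp5h, a peripheral stalk subunit with the same letters, by 0.23. Genes with the same letters took different values. Among the highest of their complexes, Ndufb11 and Atp5j2 hold neither, while Ndufaf8 and Ndufb6 hold the GABP letters and Atp5c1 the NRF1 letters. The part of these letters in the differences was not tested.

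Other genes that serve the respiratory chain were set beside the subunits. None was called by limma. Counts with an unadjusted limma p under 0.05, which 11.7% of all features had, were as follows. There was 1 of 9 for complex I assembly factors outside the Nduf names. Control of mitochondrial gene expression had 2 of 16 (its members detected on all 4 arrays). The list of the tricarboxylic acid cycle had 1 of 19, which was Pcx. There were 0 for assembly of complexes II, III and IV, assembly and control of complex V, coenzyme Q synthesis and cytochrome c. Assembly factors of complex IV had a median difference of 0.14, with 17 of 20 above 0, among them Cox14 (0.49) and Coa5 (0.34), while Cox10, which makes heme O for the enzyme, was at -0.35. Those of complex III had 5 of 5 above 0 (median 0.12), including Ttc19 (0.42), Uqcc2 (0.33) and Bcs1l (0.11), the chaperone that inserts the Rieske protein. Complex II assembly factors had 3 of 4 above 0 (median 0.17). For complex V, genes of assembly and of control were listed together, and 4 of 5 were above 0 (median 0.27). The highest was Minos1 (0.51) and the only one below 0 was Atpaf2 (-0.03), while Fmc1 was at 0.32. Usmg5, also on that list, is the same gene as the family's own Atp5md.

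Complex I assembly factors outside the Nduf names had a median of -0.05, with 6 of 9 below 0. Timmdc1, a membrane protein of complex I assembly, read 1.19 and 1.23 in haploid and 1.66 and 1.89 in diploid cells (-0.57 ± 0.18, limma adjusted p = 0.31). Both haploid arrays were low there. Genes that control mitochondrial gene expression had 11 of 16 below 0 (median -0.05), counting those detected on all 4 arrays. Ppargc1b, a coactivator of mitochondrial genes, read -4.97 and -5.26 in haploid cells, where it was not well above background, and -4.25 and -3.32 in diploid cells, at least 2.03-fold higher (the diploid mean over the lowest signal well above background of each haploid array where the probe was below it). It entered the test only through the diploid group, so no p is given. Pprc1, a related coactivator, read -1.07 and -1.45 against -1.76 and -1.86 (0.55 ± 0.20, limma adjusted p = 0.37). Twnk, the helicase of mitochondrial DNA, read -1.06 and -1.18 against -0.67 and -0.58 (-0.50 ± 0.17, limma adjusted p = 0.34). Both haploid values of Pprc1 were above both diploid values, and those of Twnk below them.

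The list of tricarboxylic acid cycle enzymes had 13 of 19 above 0 (median 0.10). It also holds Pcx, which refills the cycle from pyruvate, and the pyruvate dehydrogenase genes Pdha1, Pdhb, Dlat and Pdhx. Pcx was the highest (0.56 ± 0.17, limma adjusted p = 0.31), followed by Idh2 (0.45) and Mdh2 (0.40). Coenzyme Q synthesis had 8 of 12 above 0 (median 0.04), with Coq8b at 0.39, Coq7 at 0.31 and Pdss2 at -0.35. Of the electron carriers between complexes III and IV, the somatic cytochrome c gene Cycs differed by 0.22 and the testis gene Cyct by -0.27.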

How the data were processed

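RNA of 4 samples was measured on 1-colour Agilent arrays. Agilent Feature Extraction 11.0.1.1 made the deposited scanner files, per the file headers, and their processed signal is a linear intensity. A table of linear intensity values that the authors deposited, with column medians of 28.3 to 28.4, served as an alternative; the step that brought its columns to 1 scale is not stated in these sources. Control and outlier spots (121 to 168 of 43020 per array) were left out, repeated spots averaged, and log2 signal minus the array's 75th percentile was used; no spot was saturated. Of 39429 probes, 26055 (66.1%) were named by accession through a table of RefSeq genes (GRCm38.p6). A probe was kept where 1 group or both had it well above background on each array, and the brightest stood for its gene, giving 17963 features. Groups were compared with limma 3.58.1 in R 4.3.3 (lmFit and eBayes, two-sided, Benjamini-Hochberg over all features, threshold 0.05). On simulated data this recovered 52% of 100 features changed 2-fold and 100% of 100 changed 4-fold, with 19 false calls. Smaller changes were not simulated. Values were summarised in Python 3.11.15. The p-values reflect only how these samples vary among themselves, and the number of arrays limits the precision. Genes were named by rule: for each complex the 3 highest and 2 lowest differences, X-linked genes, tissue forms, all Sdh genes, genes whose probes disagree in sign by over 0.5, genes not above background, called genes, and up to 3 genes with the smallest p from each other list; others are said to be chosen after their values were seen, or stand as examples of their group. Roles within complexes were assigned after the data were seen. The genes and lists were chosen with earlier results of these data known. Equal replicate numbers were not taken as pairs, since the labels state no shared origin.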

Additional observations from a re-analysis of the deposited data

How the results depend on the processing

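The medians over 93 genes kept their sign under every alternative run, except that of complex III, and no respiratory chain gene was called except Ndufa4l2 without haploid replicate 2. The median over all 93 genes was 0.23, and 0.07 with quantile normalization, 0.08 in the values deposited by the authors, 0.31 with median scaling and 0.67 with normexp on all spots (which also moved the median of all features tested to -0.10), but 0.20 when 14 spots of high local background, all on diploid replicate 2, were left out of normexp; 0.65, 0.72, 0.61, 0.58 and 0.72 were the normexp medians of complexes I to V on all spots, and 0.18, 0.25, 0.11, 0.21 and 0.21 without those 14. Quantile normalization gave 0.11 for complex II and -0.01 for complex III, and the authors' values gave 0.13 and -0.027. Leaving out each replicate gave 0.036 to 0.44 for all 93 genes, 0.031 to 0.40 for complex I, 0.12 to 0.41 for complex II, 0.026 to 0.43 for complex III, 0.044 to 0.42 for complex IV and 0.064 to 0.52 for complex V; the lowest values of all 6 came without diploid replicate 2. Called genes numbered 0 to 1 in the family and 0 to 5 in the other lists when a replicate was left out, the 5 being Adm, Bnip3, Egln3, Ndrg1 and Pdk1 without haploid replicate 2; in the other lists 2 (Pdk1 and Vegfa) were called with trend and robust fitting and 1 (Pdk1) with normexp when spots of high local background were left out. Over all features the 20 calls became 0 to 425, and 2 with a replicate block, which called 0 respiratory chain genes; same-numbered arrays deviated together with a correlation of 0.05. Of the 92 tested genes, 19 changed sign with quantile normalization, 20 in the authors' values, 9 with normexp on all spots and 20 without diploid replicate 2. Among the 34 tested genes named by rule, signs turned with quantile normalization in Atp5j (-0.025), Cox4i1 (-0.15), Ndufa4 (-0.035) and Uqcrc1 (-0.12); in the authors' values in Atp5d (-0.010), Atp5j (-0.026), Cox4i1 (-0.14), Ndufa4 (-0.019) and Uqcrc1 (-0.11); with median scaling in Sdhd (0.034); with normexp on all spots in Cox4i2 (-0.53), Cox7b2 (-0.0076), Cox8c (-0.62), Cyc1 (0.25), Ndufaf4 (0.15) and Sdhd (0.51); with normexp less the spots of high background in Sdhd (0.031) and Uqcrc1 (-0.044); and with the mean of all probes in Ndufv3 (-0.10). Among the same 34, leaving out a replicate turned Cox6a2 (-0.81 to 0.35), Cox4i2 (-0.16 to 0.19), Uqcrc1 (-0.073 to 0.11), Sdhd (-0.14 to 0.061), Atp5j (-0.042 to 0.32), Cox7a2 (-0.0098 to 0.58), Cox8c (-0.070 to 0.36), Ndufa4 (-0.036 to 0.34) and Ndufv3 (-0.045 to 0.49), and Ndufa4l2 ranged from -2.61 to -0.42. The cause was not tested. Signal near background limits Cox8b and the dim tissue forms.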
